A study of Mus musculus with 4 samples.

Results

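The Wnt pathway carries signals between cells through secreted lipid-bearing ligands. In the branch that runs through beta-catenin, a ligand joins a Frizzled receptor to the co-receptor Lrp5 or Lrp6, the complex of Axin, Apc and Gsk3b that marks beta-catenin for destruction is held back, and beta-catenin works in the nucleus with TCF/LEF factors. Other branches run through Frizzled with Ror or Ryk receptors and act on cell polarity and movement. In the developing brain the pathway is known for patterning the cortex, for vessel growth under Wnt7a and Wnt7b, and for the balance of neurons and glia.

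The genes described here are 46 listed mouse genes of this pathway: 5 ligands, 2 genes of ligand processing, 10 Frizzled receptors, 5 co-receptors, 4 genes of receptor turnover, 10 cytoplasmic mediators, 4 TCF/LEF factors and 6 secreted antagonists. They were chosen by name, and all 46 were found among the 53379 genes of the count table. RNA was sequenced from cultured cortical astrocytes of C57BL/6 mice at day 14 in vitro, 2 Npas3-/- samples and 2 wild-type (WT) samples. The protein of Npas3 is a transcription factor of the bHLH-PAS class, found in neural cells. Newborn cortex had been dissociated with papain, grown in serum, shaken daily to shed other cells and replated, so these are serum-grown cultures and not freshly isolated cells. The labels do not describe the Npas3 allele, nor whether the samples of 1 genotype are separate animals or cultures. The p-values thus cover only how far these samples vary, which could be technical.

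The libraries held 86932708 and 85897778 counts in Npas3-/- and 82965565 and 85688472 counts in WT. Npas3 itself had 2055 and 1386 counts in the Npas3-/- libraries, against 5129 and 8739 in the WT libraries, so its transcripts were lower but not absent under that label. The 8 astrocyte markers were led by Gfap in Npas3-/- and by Slc1a3 in WT, and their summed level was 4729 and 4750.2 CPM in Npas3-/- and 2955 and 3758 CPM in WT. CPM are counts scaled to a common library size and to library composition. The gap junction gene Gja1, the water channel gene Aqp4 and the glutamate transporter gene Slc1a2 were called lower, and Gfap and Aldoc higher. Microglial markers summed to 8.85 and 8.41 CPM in Npas3-/-, against 9.19 and 10.6 CPM in WT, and endothelial markers to between 11.9 and 17.1 CPM in every library. Summed neuronal markers reached 197 and 198 CPM in Npas3-/-, against 272 and 121 CPM in WT, and markers of the oligodendrocyte lineage, mostly Olig1, 1200 and 1509 CPM, against 1135 and 1086 CPM, with Mog at 0 throughout. Markers of mural cells, mostly Acta2, summed to 1373 and 1394 CPM in Npas3-/-, against 1283 and 317 CPM in WT. For meningeal fibroblasts the sums were 265 and 323 CPM in Npas3-/-, against 367 and 312 CPM in WT, with Slc22a6 at 0 throughout, and for ependymal and choroid plexus cells 509 and 643 CPM, against 365 and 258 CPM. Markers called lower in these lists included Syt1, Tek, Rgs5, Dcn and Col3a1, and Tekt1 was called higher. In bulk samples, fewer cells of a type and less RNA per cell cannot be told apart, and the part of any of these cell types in the results below was not tested.

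Of the 46 genes 44 had enough counts to be tested, and 5 were higher and 11 lower in Npas3-/- at an adjusted p below 0.05 (edgeR quasi-likelihood F-test, Benjamini-Hochberg over all 18838 genes tested). The higher genes were Fzd9, Wnt7a, Wnt5b, Fzd2 and Dvl1. The lower genes were Lgr4, Gsk3b, Fzd3, Lrp6, Wnt5a, Fzd4, Ror1, Znrf3, Ror2, Fzd6 and Fzd7. These 16 genes are 36.4% of those tested, near the 33.1% called among all genes, of which 11.6% were higher and 21.5% lower, so the share called is not a result about the Wnt genes. The median log2 fold change of the 44 genes was -0.04, against -0.07 over all genes tested. In 40 of the 44 genes, called or not, the genotypes did not overlap, and the share over all genes was not taken. Lack of overlap, where given below, thus does not mark a gene out. A call lost without Npas3-/- replicate 2, here and below, is not particular to the Wnt genes. No gene of the whole table passed the same edgeR test in that fit, and so none of the 44. The counts were 2 higher and 5 lower without Npas3-/- replicate 1, 3 higher and 10 lower without WT replicate 2, and 6 higher and 11 lower without WT replicate 1.

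**Figure D1:**
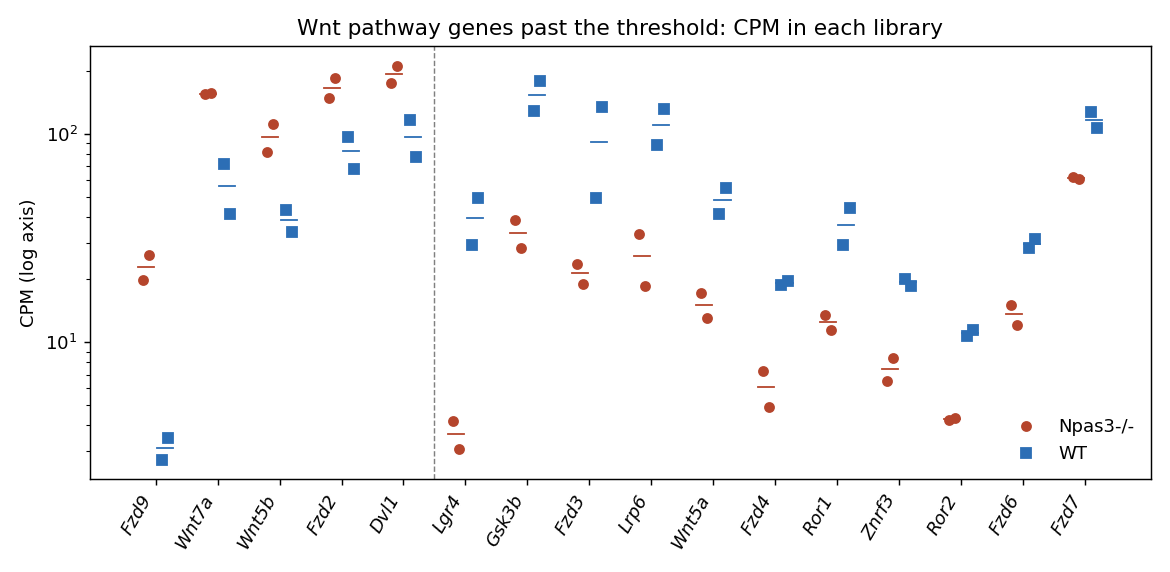
Level of each of the 16 Wnt genes past the threshold, in CPM on a log axis, in the 2 Npas3-/- libraries (red circles) and the 2 WT libraries (blue squares), with a short line at each group's mean. The 5 higher genes stand left of the dashed line and the 11 lower genes right of it. Fzd9 and Lgr4 show the widest separation. The genotypes overlap in none of the genes shown, but lack of overlap held for 40 of the 44 tested Wnt genes, called or not.

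The fold changes of the Wnt genes followed the base composition of their transcripts, as they did for all genes. The 5 higher genes had transcripts with 55.4% to 62.2% GC (median 59.98%) and the 11 lower genes 40.3% to 58.9% (median 47.0%). Across the 44 tested genes the log2 fold change and the GC content had a Spearman's rho of 0.710, against 0.730 over 14356 genes with at least 1 CPM; all of these points share the same 4 libraries. With transcript length the rho over the 44 genes was -0.720. The average GC content of a counted transcript was 53.2% and 53.6% in the Npas3-/- libraries and 51.5% and 50.2% in the WT libraries. Genotype and this library-wide gradient cannot be told apart in 4 libraries.

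A second fit therefore removed, per library, the part of the levels that follows GC content and length, together with any true difference that follows them. It called 2 Wnt genes higher and 3 lower (11.4%), where 8.42% of all genes were called, 4.59% higher and 3.84% lower. In that fit the rho with GC content over the 44 genes was 0.165, and the median log2 fold change was -0.10 over the Wnt genes and -0.03 over all genes. Fzd9 was higher, and Fzd7, Ror2 and Lgr4 were lower, in both fits. Fzd3 was called in opposite directions by the 2 fits. Npas3 itself had a log2 fold change of -1.82 before the correction and -0.65 after it. Without either of the Npas3-/- libraries the corrected fit called no gene of the whole table, and so none of the 44. It called 3 higher and 3 lower without WT replicate 1, and 2 higher and 3 lower without WT replicate 2.

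**Figure D2:**
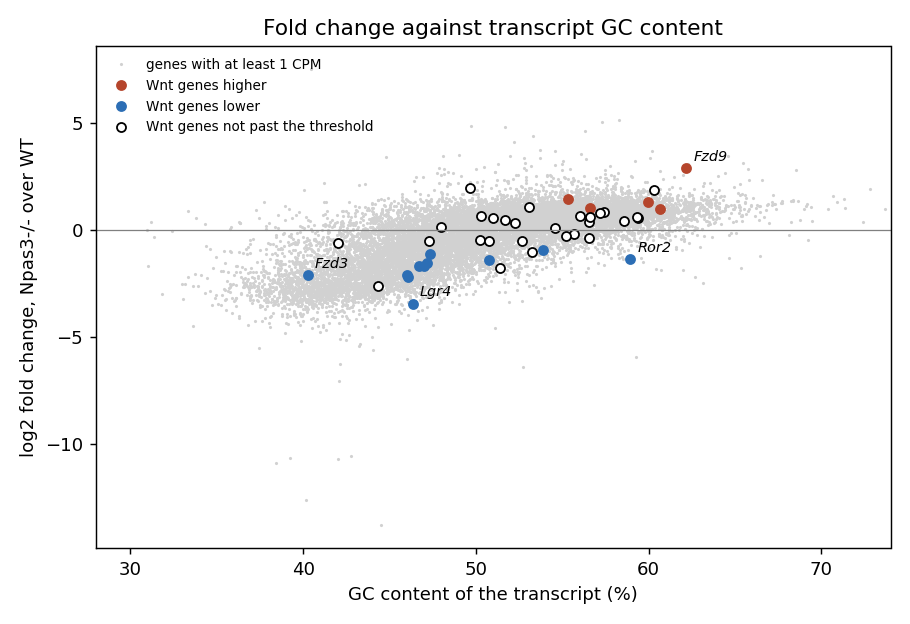
Log2 fold change of Npas3-/- over WT against the GC content of the transcript in percent, for genes with at least 1 CPM (grey) and for the Wnt genes, coloured red where called higher, blue where called lower and white where not past the threshold. Fzd3, at 40.3% GC, lies on the low side of the grey cloud, while Fzd9 lies at its upper edge and Ror2 and Lgr4 at its lower edge at their own GC content.

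The 4 genes called alike by both fits encode receptors or a receptor regulator, and their positions on mm10 are as follows. Fzd9 (ENSMUSG00000049551.2) lies on chromosome 5 at 135248938 to 135251230 on the minus strand, as a single exon. Fzd7 lies on chromosome 1 at 59482424 to 59486955 on the plus strand, Ror2 on chromosome 13 at 53109312 to 53286124 on the minus strand, and Lgr4 on chromosome 2 at 109917647 to 110014257 on the plus strand. The 250 bases before the RefSeq start of a gene (GRCm38.p6) were searched on both strands for the core ACGTG, which bHLH-PAS factors bind with ARNT, and for CTTTGAA and CTTTGAT, which TCF/LEF factors bind. A window was at hand for 31 of the 46 genes. Of these, 7 genes held ACGTG (22.6%), against 18.5% of 27025 genes: Dvl2, Fzd9, Lef1, Tcf7l2, Wif1, Wnt11 and Wnt5b. The TCF/LEF core stood in 3 of the 31 (9.68%; Dkk1, Wnt11 and Wnt5b), against 8.63% of all genes.

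Of the 4 genes only Fzd9 had a match, and its sites are shown with the match in capitals, beside the whole windows of Lgr4 and Ror2, which held none. The Fzd7 window held none either and is not shown. It ends at 59482146 on chromosome 1, before the GENCODE start at 59482424. The bases just after it were not found in an annotated Fzd7 transcript, so this window may not be the promoter of the counted gene. Each sequence runs 5′ to 3′ on the strand of its gene. The first Fzd9 site reads CACGTG, which contains the core on both strands, and starts 88 bases before the RefSeq start (chr5:135251118-135251147, minus strand), and the second starts 53 bases before it (chr5:135251084-135251113, minus strand). Both lie inside the exon that GENCODE gives for Fzd9, whose start is farther upstream. The Lgr4 window is chr2:109917397-109917646 (plus strand, 55.6% GC) and the Ror2 window chr13:53286125-53286374 (minus strand, 73.2% GC). A match of letters is a description of the window and not a binding site.
Fzd9 first site: cgctccgggacaCACGTGggcggccgagag
Fzd9 second site: cgcgggagccgcgACGTGgcgcgcagatcc
Lgr4: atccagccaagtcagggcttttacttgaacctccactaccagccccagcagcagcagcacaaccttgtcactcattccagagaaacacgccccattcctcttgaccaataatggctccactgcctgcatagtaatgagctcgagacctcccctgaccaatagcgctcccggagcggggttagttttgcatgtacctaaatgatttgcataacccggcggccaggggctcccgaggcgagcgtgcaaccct
Ror2: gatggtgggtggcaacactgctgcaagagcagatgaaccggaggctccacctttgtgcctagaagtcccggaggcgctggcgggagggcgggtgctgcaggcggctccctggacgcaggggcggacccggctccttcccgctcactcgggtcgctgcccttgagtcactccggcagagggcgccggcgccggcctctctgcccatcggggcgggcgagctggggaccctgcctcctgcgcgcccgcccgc

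Among the 5 ligands, Wnt7a and Wnt5b were higher and Wnt5a was lower in Npas3-/-, where 33.1% of all genes were called. A group of 5 genes allows no statement about ligands as a whole. Wnt7a, a ligand of brain vessel growth and synapse formation, had 156 and 156 CPM in Npas3-/-, against 71.2 and 41.4 CPM in WT, a log2 fold change of 1.47 (SE 0.30). Wnt5b, a relative of Wnt5a, had 81.4 and 111 CPM in Npas3-/- libraries and 43.3 and 33.6 CPM in WT libraries, a log2 fold change of 1.32 (SE 0.26). Both were above WT in every Npas3-/- library.

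Wnt5a, which signals mostly outside the beta-catenin branch, had 17.1 and 13.1 CPM in Npas3-/-, against 41.3 and 55.0 CPM in WT, a log2 fold change of -1.67 (SE 0.28). Every Npas3-/- value lay below every WT value. The adjusted p-values of these 3 ligands lay between 0.0163 and 0.0234 (edgeR, Benjamini-Hochberg). After the correction for GC and length none passed: the log2 fold change was 0.99 for Wnt7a, 0.42 for Wnt5b and -0.27 for Wnt5a. Wnt7a did not pass without Npas3-/- replicate 1 (log2 fold change 1.47), nor Wnt5b without WT replicate 2 (1.14), and without Npas3-/- replicate 2 the values were 1.47, 1.09 and -1.48. Wnt5a shares 358 exon bases with a gene on the other strand, and its reads there are uncertain, since no source used here gives the strand setting of the counting.

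The balance of the ligands is given per length, as CPM per kb of exon. These levels are not corrected for GC content, so the library-wide gradient enters the ratios and shares. Per length, Wnt5b was 14.0 and 24.96 times the level of Wnt5a in the Npas3-/- libraries, against 3.09 and 1.80 times in the WT libraries. The Wnt5b transcript holds 59.98% GC and that of Wnt5a 46.7%. With the correction their log2 fold changes were 0.42 and -0.27. Wnt7a made up 58.2% and 51.7% of the summed per-length level of the 5 ligands in Npas3-/-, against 49.0% and 37.9% in WT, and Wnt5a 2.60% and 1.76%, against 11.5% and 20.4%. The summed level itself was 84.4 and 95.3 CPM per kb in Npas3-/-, against 45.8 and 34.4 CPM per kb in WT. Wnt7a and Wnt5b were the leading ligands in all 4 libraries (per coding length Wnt5a led in WT replicate 2), and Wnt5a ranked above Wnt7b in both WT libraries. Wnt7b, the partner of Wnt7a, had 11.7 and 12.2 CPM in Npas3-/- and 7.95 and 7.95 CPM in WT (log2 fold change 0.59, and -0.04 when corrected), and Wnt11 stayed below 0.6 CPM in every library. Neither passed the test.

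Both genes of ligand processing missed the threshold. Wls, the carrier that takes Wnt proteins to the cell surface, had 57.5 and 54.4 CPM in Npas3-/-, against 87.3 and 81.2 CPM in WT, a log2 fold change of -0.59 (SE 0.19). Its transcript holds 42.0% GC, and the corrected log2 fold change was 1.27, on the other side of 0. Porcn, the enzyme that attaches the lipid to Wnt proteins, had 17.4 and 24.1 CPM in Npas3-/-, against 10.8 and 11.9 CPM in WT (log2 fold change 0.87, and -0.11 when corrected). Other settings called both genes: Porcn passed with DESeq2 (0.86), while Wls passed as lower with a filter of 5 CPM on average (-0.64) and as higher with the correction and without WT replicate 1 (1.75).

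The Frizzled receptors held 6 of the 16 calls, 2 higher and 4 lower among 10 tested, where 33.1% of all genes were called (11.6% higher and 21.5% lower); so few genes allow no statement about the family. Fzd9, a receptor known from hippocampal development and bone, had 1648 and 2016 counts in Npas3-/-, against 243 and 326 counts in WT. In CPM it reached 19.9 and 26.2 in Npas3-/- libraries and 2.74 and 3.48 in WT libraries, a 7.40-fold higher level (log2 fold change 2.89, SE 0.32; Benjamini-Hochberg adjusted p = 0.0130 by edgeR). The gap between genotypes was far wider than the spread within either. With the correction the log2 fold change was 1.89 (SE 0.31) and passed. Fzd9 kept its direction in all 18 alternatives and passed in 14, with adjusted p-values between 7.99e-14 and 0.151 (edgeR, DESeq2 or limma). Without Npas3-/- replicate 2 it stood at 2.68 and did not pass. Every setting in which Fzd9 did not pass called no gene of the whole table.

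Fzd2, a receptor of both branches, had 148 and 184 CPM in Npas3-/-, against 96.8 and 67.7 CPM in WT, a log2 fold change of 1.01 (SE 0.26) that was 0.55 and did not pass when corrected. It lost the call without any library but WT replicate 1, at 1.16 without Npas3-/- replicate 1, 0.85 without Npas3-/- replicate 2 and 0.76 without WT replicate 2. Fzd7, a receptor of stem and progenitor cells, had 62.2 and 60.6 CPM in Npas3-/-, against 127 and 107 CPM in WT, a log2 fold change of -0.93 (SE 0.20). The correction left it at -1.07 (SE 0.15), and it passed. Both Fzd7 values of Npas3-/- lay well under the WT values. Its call was lost without Npas3-/- replicate 1 (-0.95), without Npas3-/- replicate 2 (-0.90) and without WT replicate 1 (-0.82).

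Fzd4, the receptor of norrin and of retinal vessels, had 7.28 and 4.89 CPM in Npas3-/-, against 18.9 and 19.7 CPM in WT, a log2 fold change of -1.66 (SE 0.32). Fzd6, known from planar polarity of the skin, had 15.1 and 12.1 CPM in Npas3-/-, against 28.3 and 31.2 CPM in WT, a log2 fold change of -1.13 (SE 0.25). Neither gene overlapped between genotypes, and neither passed with the correction, at -0.40 and -0.27. Fzd6 also failed without Npas3-/- replicate 1 (-1.30) and without WT replicate 2 (-1.07), and without Npas3-/- replicate 2 the values were -1.40 for Fzd4 and -0.97 for Fzd6.

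Fzd3, a guidance receptor of growing axons, had 23.8 and 19.1 CPM in Npas3-/-, against 48.9 and 134 CPM in WT. The WT libraries differed more from each other than WT replicate 1 did from either Npas3-/- library. Its log2 fold change was -2.10 (SE 0.50) and passed. The correction for GC and length, on a transcript of 40.3% GC and 12734 bases, gave 0.93 (SE 0.19) and passed in the opposite direction. The direction of Fzd3 thus depends on the scaling. It did not pass without Npas3-/- replicate 1 (-2.26) or replicate 2 (-1.94). The 6 Frizzled calls had adjusted p-values between 0.0130 and 0.0360 (edgeR, Benjamini-Hochberg).

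The remaining Frizzled genes missed the threshold. Fzd1, a beta-catenin branch receptor, had 168 and 182 CPM in Npas3-/- and 207 and 183 CPM in WT. Fzd5, a receptor known from eye and vessel development, had 140.3 and 128 CPM in Npas3-/-, against 190.5 and 188 CPM in WT, a log2 fold change of -0.50 (SE 0.18), and Fzd8, a close relative of Fzd5, had 93.1 and 114 CPM in Npas3-/-, against 79.5 and 69.9 CPM in WT, a log2 fold change of 0.47 (SE 0.21). For both, the genotypes did not overlap. Fzd10 had 10.5 and 9.23 CPM in Npas3-/- and 8.21 and 6.98 CPM in WT.

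Taken per length over the whole family, the summed Frizzled level was 148 and 164 CPM per kb in Npas3-/-, against 161 and 148 CPM per kb in WT. The genotypes thus overlapped in the sum. These levels are not corrected for GC and length, so the gradient enters the shares and ratios. With the correction the log2 fold changes were 0.55 for Fzd2, -1.07 for Fzd7 and 1.89 for Fzd9. Fzd2 held 27.3% and 30.8% of the sum in Npas3-/-, against 16.4% and 12.5% in WT. Fzd7 held 9.27% and 8.18% in Npas3-/-, against 17.4% and 15.9% in WT, and Fzd9 5.86% and 6.98%, against 0.742% and 1.03%. Fzd1 led in both WT libraries, with 30.7% and 29.4%, and held 27.1% and 26.5% in Npas3-/-, where Fzd2 was above it (per coding length Fzd1 was above Fzd2 in Npas3-/- replicate 1, at 23.2% and 23.0%). The per-length ratio of Fzd9 to Fzd7 was 0.632 and 0.853 in Npas3-/-, against 0.0427 and 0.0645 in WT. With the coding length in place of all exons, the mean Fzd9 share was 3.32% ± 0.475 in Npas3-/- and 0.399% ± 0.0697 in WT (SD, n = 2 each), and that of Fzd2 24.9% ± 2.62 in Npas3-/- and 11.0% ± 2.67 in WT. On that length Fzd5 held the largest mean share in WT (24.6%), and the sum was lower in both Npas3-/- libraries, at 376 and 404 CPM per kb, against 441 and 437 CPM per kb in WT.

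**Figure D3:**
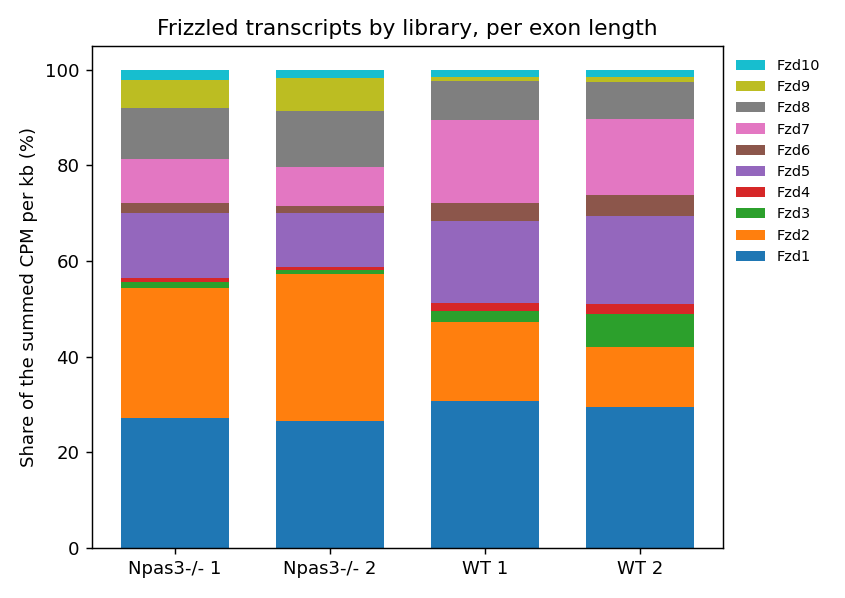
Share of each of the 10 Frizzled genes in the summed CPM per kb of exon, in percent, in the 2 Npas3-/- libraries and the 2 WT libraries. The levels are not corrected for GC and length. The Fzd2 segment is 27.3% and 30.8% in Npas3-/- against 16.4% and 12.5% in WT, the Fzd7 segment is smaller in both Npas3-/- libraries, and Fzd9 is a thin line in WT at 0.742% and 1.03%.

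Of the 5 co-receptors, with a median GC content of 48.0%, 3 were lower and none was higher, where 21.5% of all genes were lower and 11.6% higher; 5 genes allow no statement about the group. Lrp6, the co-receptor that takes the Wnt signal to the Axin complex, had 33.1 and 18.5 CPM in Npas3-/-, against 88.5 and 131 CPM in WT, a log2 fold change of -2.09 (SE 0.37). Lrp5, its paralog, had 123 and 117 CPM in Npas3-/- and 88.5 and 91.4 CPM in WT, a log2 fold change of 0.42 (SE 0.18) that missed the threshold. Both genes separated the genotypes, in opposite directions.

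Per length, Lrp5 was 5.22 and 8.89 times the level of Lrp6 in the Npas3-/- libraries, against 1.41 and 0.979 times in the WT libraries. The transcripts differ in GC content, 58.6% for Lrp5 and 46.0% for Lrp6, and with the correction the log2 fold changes were 0.13 and -0.38, neither past the threshold. Without Npas3-/- replicate 2 Lrp6 stood at -1.72 and did not pass.

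Ror1 and Ror2 are receptor tyrosine kinases that bind Wnt5a. Ror1 had 13.5 and 11.5 CPM in Npas3-/-, against 29.3 and 43.8 CPM in WT, a log2 fold change of -1.55 (SE 0.30). Ror2 had 4.24 and 4.32 CPM in Npas3-/-, against 10.7 and 11.4 CPM in WT, a log2 fold change of -1.37 (SE 0.29). For both, the Npas3-/- values lay below all WT values.

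With the correction Ror1 stood at -0.39 and did not pass, while Ror2, with 58.9% GC the most GC-rich of the 11 lower genes, stood at -1.89 (SE 0.27) and passed. Neither passed without Npas3-/- replicate 1 (-1.67 for Ror1 and -1.36 for Ror2) or replicate 2 (-1.43 and -1.38). The adjusted p-values of the 3 lower co-receptors lay between 0.0178 and 0.0256 (edgeR, Benjamini-Hochberg). Ryk, a Wnt receptor with an inactive kinase domain, had 129 and 106 CPM in Npas3-/- and 108 and 106 CPM in WT, and the genotypes overlapped.

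Receptor turnover is set by the ubiquitin ligases Znrf3 and Rnf43, which remove Frizzled from the surface, and by the Lgr receptors, which with R-spondins hold these ligases back. Lgr4 had the largest fall of the tested Wnt genes, with 4.18 and 3.06 CPM in Npas3-/-, against 29.2 and 49.3 CPM in WT, a 10.8-fold lower level (log2 fold change -3.44, SE 0.38; Benjamini-Hochberg adjusted p = 0.0130 by edgeR). The lowest WT value was several times the highest Npas3-/- value. With the correction it stood at -2.18 (SE 0.26) and passed. Lgr4 kept its direction in all 18 alternatives and passed in 14, with adjusted p-values between 1.09e-15 and 0.145 (edgeR, DESeq2 or limma). Without Npas3-/- replicate 2 it stood at -3.23 and did not pass. Every setting in which Lgr4 did not pass called no gene of the whole table.

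Lgr5, the relative of Lgr4 that marks many adult stem cells, had 0 and 0 counts in Npas3-/-, against 38 and 4 counts in WT. It was too low for the count filter of both fits, though other settings tested it. Set against a floor of 3 counts per library in Npas3-/-, the WT mean of Lgr5 was 6.26 times the floor, and WT replicate 2 alone 1.14 times. The floor does not cover the counting error of the WT counts. No difference can thus be read from the 4 counts of WT replicate 2. Znrf3, itself a target of beta-catenin, had 6.54 and 8.39 CPM in Npas3-/-, against 20.2 and 18.6 CPM in WT, a log2 fold change of -1.38 (SE 0.28; Benjamini-Hochberg adjusted p = 0.0236 by edgeR). The genotypes did not overlap. Corrected it stood at -0.86 and did not pass, nor did it pass without Npas3-/- replicate 1 (-1.21) or replicate 2 (-1.57). Rnf43 had under 1 CPM in every library and missed the threshold.

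Of the 10 cytoplasmic mediators Dvl1 was called higher and Gsk3b lower, where 33.1% of all genes were called. So few genes allow no statement about the group. Dvl1, a Dishevelled protein that relays the signal from Frizzled, had 175 and 212 CPM in Npas3-/-, against 117 and 77.3 CPM in WT, a log2 fold change of 1.00 (SE 0.27; Benjamini-Hochberg adjusted p = 0.0412 by edgeR). Gsk3b, the kinase that marks beta-catenin for destruction, had 38.5 and 28.3 CPM in Npas3-/-, against 129 and 179 CPM in WT, a log2 fold change of -2.21 (SE 0.28; Benjamini-Hochberg adjusted p = 0.0130 by edgeR). The Npas3-/- values of Dvl1 all exceeded WT, and those of Gsk3b all fell short of it.

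With the correction neither passed, at 0.35 for Dvl1 and -0.54 for Gsk3b. Dvl1 did not pass without Npas3-/- replicate 1 (1.13), Npas3-/- replicate 2 (0.86) or WT replicate 2 (0.72), and Gsk3b not without Npas3-/- replicate 2 (-1.995). Dvl3 had 85.3 and 54.5 CPM in Npas3-/- and 88.1 and 82.1 CPM in WT, with overlap, and Dvl2 40.5 and 52.8 CPM, against 31.9 and 21.9 CPM, without it. Per length, Dvl1 was 2.63 and 5.00 times the level of Dvl3 in the Npas3-/- libraries, against 1.70 and 1.21 times in the WT libraries. These ratios too are uncorrected, and with the correction the log2 fold changes were 0.35 for Dvl1 and -0.63 for Dvl3.

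Ctnnb1, the gene of beta-catenin, was the most abundant of the 46 genes per length in all 4 libraries. It had 665 and 841 CPM in Npas3-/-, against 1046 and 999 CPM in WT, a log2 fold change of -0.44 (SE 0.22) that missed the threshold although the genotypes did not overlap. Apc, a scaffold of the destruction complex, had 21.8 and 7.53 CPM in Npas3-/-, against 29.5 and 147 CPM in WT. The WT replicates lay far apart, and the log2 fold change of -2.59 had an SE of 0.87 and missed the threshold. It was -1.02 without WT replicate 2, and -3.34 and past the threshold without WT replicate 1. It was -3.55 without Npas3-/- replicate 1 and -2.01 without Npas3-/- replicate 2. With the correction it was -0.26, and between -0.86 and 0.76 with 1 library left out.

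Axin1, the limiting scaffold of the same complex, had 79.0 and 81.7 CPM in Npas3-/-, against 58.1 and 47.3 CPM in WT, a log2 fold change of 0.61 (SE 0.20) that missed the threshold. Axin2, an inhibitor that beta-catenin itself induces, had 86.3 and 92.1 CPM in Npas3-/-, inside the WT range of 116 and 52.9 CPM. Of the Naked inhibitors of Dishevelled, Nkd1 had 22.1 and 26.4 CPM in Npas3-/-, against 14.3 and 8.89 CPM in WT (log2 fold change 1.06, SE 0.33), and Nkd2 1.17 and 1.06 CPM, against 2.34 and 2.18 CPM. Neither passed, though both separated the genotypes.

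**Figure D4:**
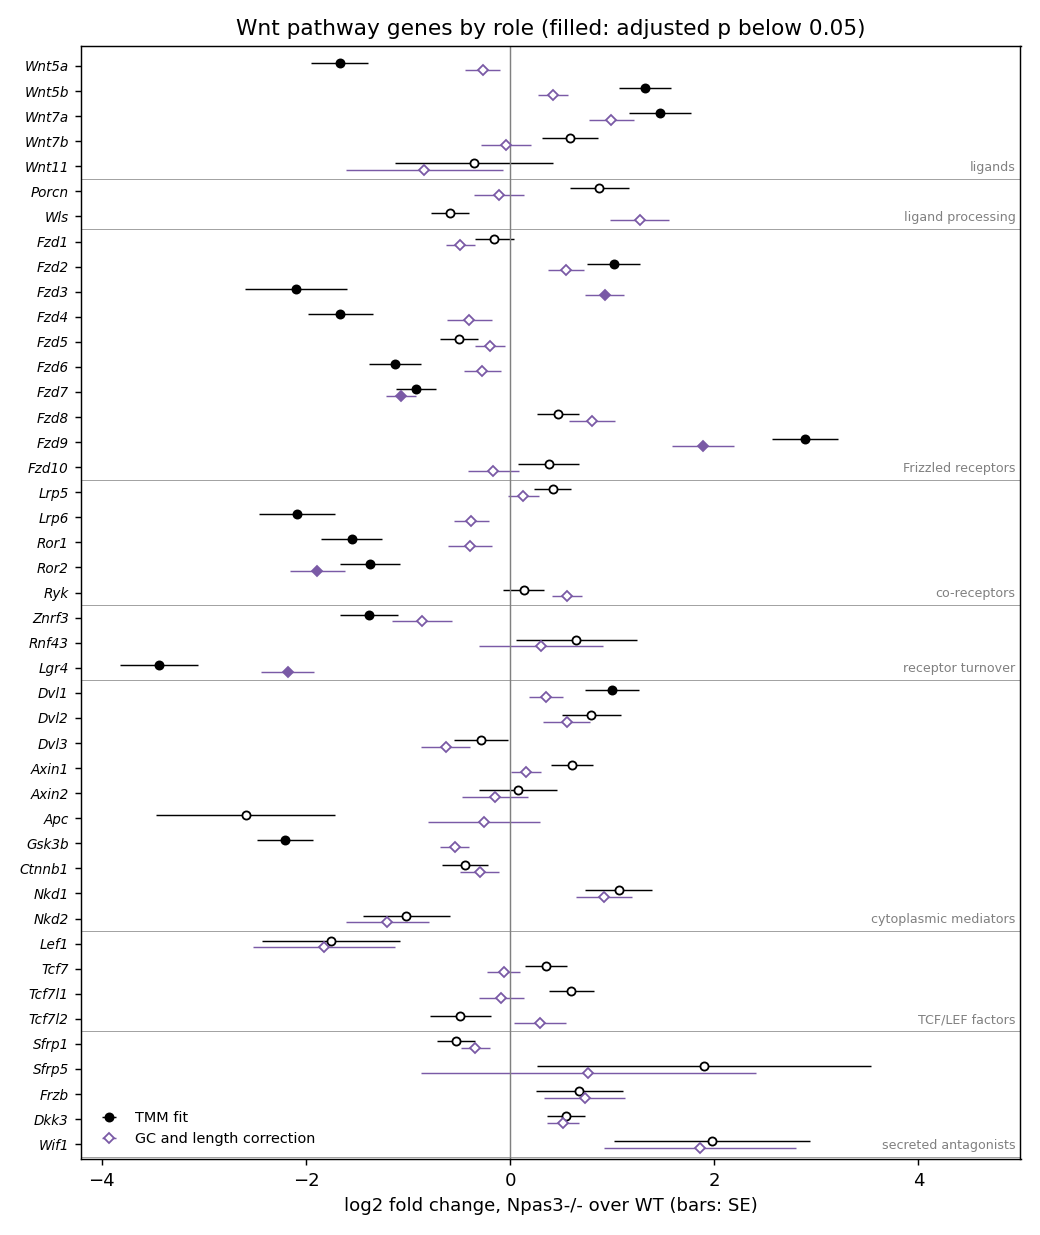
Log2 fold change of Npas3-/- over WT with its SE for the 44 tested Wnt genes by role, in the fit scaled by TMM alone (black circles) and with the GC and length correction (purple diamonds), filled where the adjusted p was below 0.05. Filled symbols of both kinds stand on the same side of 0 for Fzd7, Fzd9, Ror2 and Lgr4 and on opposite sides for Fzd3.

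None of the 4 TCF/LEF factors passed the test in either fit, where 33.1% of all genes were called, and 8.42% with the correction. Only 4 genes allow no statement about the group. Tcf7 had 65.7 and 57.5 CPM in Npas3-/-, against 51.5 and 44.98 CPM in WT, a log2 fold change of 0.35 (SE 0.21), and was the leading factor per length in all 4 libraries, with 61.9% and 62.9% of the family's level in Npas3-/- and 65.6% and 61.5% in WT. Tcf7l1, mostly a repressor, had 54.5 and 44.6 CPM in Npas3-/-, against 33.5 and 31.8 CPM in WT, a log2 fold change of 0.60 (SE 0.22). Tcf7l2 had 12.8 and 13.4 CPM in Npas3-/- and 14.8 and 21.9 CPM in WT. Lef1 was below 1 CPM in every library, at 0.217 and 0.234 CPM in Npas3-/- against 0.687 and 0.844 CPM in WT, and shares 1208 exon bases with a gene on the other strand.

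Nor did any of the 5 tested secreted antagonists pass in either fit, beside the 33.1% and 8.42% of all genes called. These few genes too allow no statement about their group. Dkk3, a divergent member of the Dickkopf family, had 125 and 122 CPM in Npas3-/-, against 79.0 and 89.7 CPM in WT, a log2 fold change of 0.55 (SE 0.19). Sfrp1, a decoy that resembles the Wnt-binding part of Frizzled, had 109.8 and 102 CPM in Npas3-/-, against 147 and 159 CPM in WT, a log2 fold change of -0.53 (SE 0.18). Both separated the genotypes, and both kept their direction with the correction, at 0.52 and -0.34.

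Wif1, a secreted protein that binds Wnt ligands, had 2.56 and 3.90 CPM in Npas3-/-, against 0.180 and 1.45 CPM in WT (log2 fold change 1.98, SE 0.96). Without WT replicate 2 the same edgeR test called Wif1 higher, at 4.13. Frzb had 2.63 and 2.47 CPM in Npas3-/- and 1.85 and 1.33 CPM in WT, and Sfrp5 was below 1 CPM throughout. Dkk1 had 4 and 0 counts in Npas3-/- and 0 in both WT libraries, at or under the floor of 3 counts per library.

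The pathway beyond these 46 genes was read from a list of 107 further genes, of which 106 were in the table and 97 tested. Of these, 8 were higher and 29 lower (38.1%), beside the 33.1% of all genes, and with the correction 2 were higher and 6 lower (8.25%), beside 8.42%. Without Npas3-/- replicate 2 none of the 97 passed the edgeR test (34 at an unadjusted p below 0.05), without Npas3-/- replicate 1 the counts were 2 higher and 17 lower, and without WT replicate 2 they were 3 higher and 19 lower. Ctnnbip1, whose product blocks the contact of beta-catenin with TCF/LEF factors, had 730.0 and 828 CPM in Npas3-/-, against 217 and 199 CPM in WT, a log2 fold change of 1.90 (SE 0.21), and passed with the correction at 1.30. Notum, an enzyme that strips the lipid from Wnt proteins, Csnk1g2, a kinase that acts on Lrp6, and Dact2, which binds Dishevelled, were higher by 1.77, 1.31 and 1.57 on the log2 scale and did not pass with the correction. Ctnnbip1 shares 720 exon bases and Notum 918 with genes on the other strand, and their reads there are uncertain.

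On the lower side, Tnks2, a tankyrase that promotes the breakdown of Axin, had 29.4 and 23.3 CPM in Npas3-/-, against 164 and 242 CPM in WT, a log2 fold change of -2.95 (SE 0.28), and passed with the correction at -1.02. Csnk1a1, the kinase that primes beta-catenin for Gsk3b, had 90.4 and 90.4 CPM in Npas3-/-, against 276 and 310.1 CPM in WT, a log2 fold change of -1.70 (SE 0.19) that was 0.11 when corrected. The stress kinase gene Mapk8 stood at -3.13, and at -0.68 and not past the threshold when corrected. Id2, an inhibitor of bHLH factors, stood at -2.18 and passed when corrected, at -1.28. Without Npas3-/- replicate 2 these 8 genes had log2 fold changes of 1.82 (Ctnnbip1), 1.46 (Notum), 1.10 (Csnk1g2), 1.49 (Dact2), -2.78 (Tnks2), -1.69 (Csnk1a1), -2.90 (Mapk8) and -2.57 (Id2), none past the threshold. Csnk1g2 and Dact2 failed without Npas3-/- replicate 1 as well (1.496 and 1.66), and Csnk1g2 without WT replicate 2 (1.05).

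Genes known to be induced by beta-catenin were brought together from the 46 genes and the further list, a grouping made after their values had been seen. Of 21 such genes 19 were tested, and 1 was higher and 6 were lower (36.8%), where 33.1% of all genes were called. Notum was the higher gene, and Znrf3, Apcdd1, Ccnd2, Cd44, Id2 and Nrcam were the lower ones. With the correction Id2 alone passed, as lower (5.26%, where 8.42% of all genes were called), and Cd44 (0.42) and Nrcam (0.59) turned to the other side of 0. None of the genes passed the edgeR test without Npas3-/- replicate 2, and the counts were 1 higher and 2 lower without Npas3-/- replicate 1, 1 and 3 without WT replicate 2, and 3 and 4 without WT replicate 1. With the correction Id2 lost its call without any one library.

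The cyclin gene Ccnd2 had 1134 and 814 CPM in Npas3-/-, against 2504 and 2126 CPM in WT, a log2 fold change of -1.25 (SE 0.27) that was -0.06 when corrected. Cd44, a cell surface receptor of hyaluronan, had 151 and 102 CPM in Npas3-/-, against 279 and 378 CPM in WT, a log2 fold change of -1.38 (SE 0.29), and Nrcam, a neural adhesion molecule, stood at -0.89 (SE 0.23). All of these separated the genotypes. Notum had 162 and 240 CPM in Npas3-/-, against 72.9 and 44.9 CPM in WT. The cyclin gene Ccnd1 had 4682 and 4241 CPM in Npas3-/- and 4456 and 2817 CPM in WT, with overlap, a log2 fold change of 0.29 (SE 0.30). Apcdd1, an inhibitor at the cell surface, had 3.78 and 3.40 CPM in Npas3-/-, against 7.63 and 8.38 CPM in WT, a log2 fold change of -1.16 (SE 0.32) that lost its call without any one of the 4 libraries, at values between -1.24 and -1.08. Its corrected value of 0.09 lay on the other side of 0. Myc (log2 fold change 0.48, SE 0.28) and Sp5 (-0.39, SE 0.66) did not pass.

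**Figure D5:**
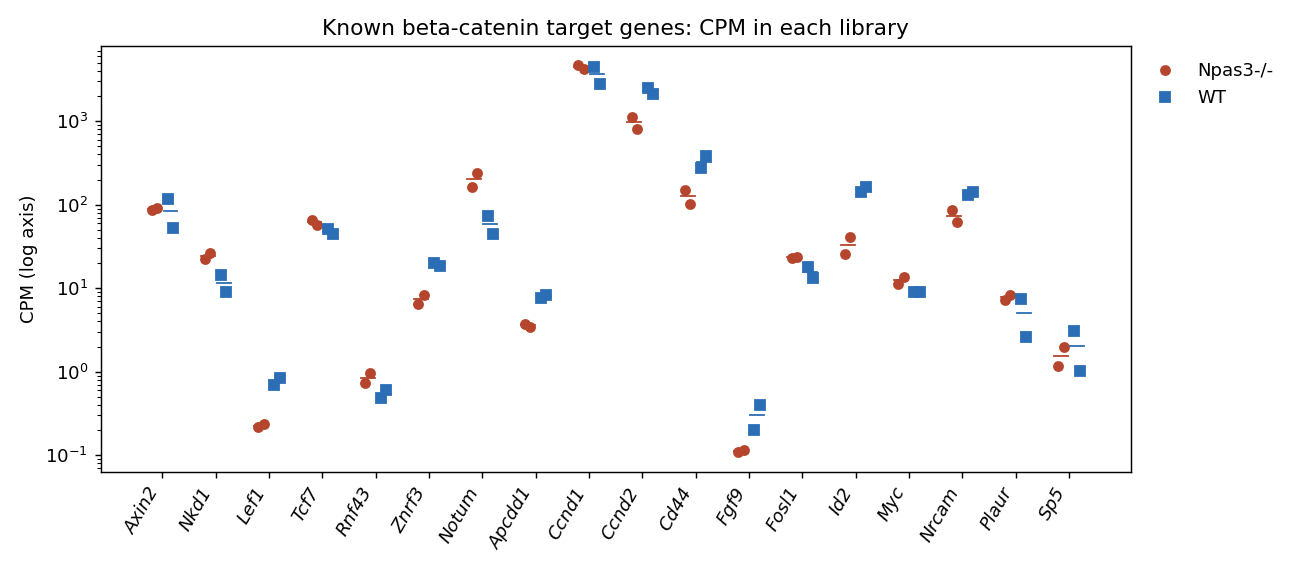
Level in CPM, on a log axis, of 18 genes that beta-catenin is known to induce, in the 2 Npas3-/- libraries (red circles) and the 2 WT libraries (blue squares), with a short line at each group's mean; Tbxt, at 0 in 1 library, cannot be drawn on this axis. Notum lies higher and Znrf3, Apcdd1, Ccnd2, Cd44, Id2 and Nrcam lie lower in Npas3-/-, and for Axin2, Ccnd1, Plaur and Sp5 the genotypes overlap.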

How the data were processed

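The authors deposited 1 table of raw gene counts, with Ensembl identifiers, for 2 Npas3-/- and 2 WT samples. The build mm10, featureCounts, HISAT2 2.1.0 and Trimmomatic 0.3.8 are named by the submitters' processing notes; strand setting, annotation release and handling of shared reads: not given in the sources used here. Genotypes came from the sample titles. Symbols, lengths and GC content came from GENCODE on the same build, in which 53274 of 53379 identifiers were found.

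Counts were tested by the quasi-likelihood F-test of edgeR 4.0.16 in R 4.3.3 over all genes, with TMM scaling, filterByExpr at a minimum count of 10, no covariate, 2 residual degrees of freedom, Benjamini-Hochberg adjustment and a threshold of 0.05. CPM used TMM-scaled library sizes, and SE is the log2 fold change over the square root of F. The corrected fit added as an offset, per library, natural splines with 6 degrees of freedom in GC content and log2 length, fitted to the deviation of log2 CPM (prior count 2) from the gene's mean. Alternatives were DESeq2 1.42.0, its size factors, limma-voom (limma 3.58.1), 2 other filters, a test against a 1.5-fold change, replicate blocks and leaving out each library. Total counts of 82965565 to 86932708 per library leave counting error small except for the lowest genes. Floors cover only the counting error of libraries at 0, not that of the libraries compared with them.

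The 46 genes, the further list and the marker lists were chosen with earlier results of these data known. Values per library are given for genes past the threshold and those of at least 50 CPM on average; of the further genes, the 4 with the smallest p in each direction and 5 target genes are named. Other genes were named after their values were seen. Promoter sequences are RefSeq's (GRCm38.p6).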

Additional observations from a re-analysis of the deposited data

How the results depend on the processing

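Among the 46 genes, 5 were higher and 11 lower as reported, and among the 107 further genes 8 and 29. The counts became 2 and 3 for the 46 genes, and 2 and 6 for the further genes, with the GC and length correction. Without a filter on low counts 3 of the 46 were higher and 10 lower, and 5 and 22 of the further genes. Against a 1.5-fold change the counts were 2 and 6, and 2 and 18. The replicate number pairs samples by label only (their deviations from the group means correlated at -0.29 across genes). The replicate block gave 2 higher and 5 lower, and 2 and 18 in the further list. With the correction added it gave 0 in both lists and both directions, and 0 over all 18817 genes tested (edgeR). In that edgeR fit 16 and 31 genes of the lists had an unadjusted p below 0.05. A crossed replicate block, added after seeing the data, gave 9 higher and 14 lower, and 16 and 33 in the further list. DESeq2, its size factors, limma-voom and the 5 CPM filter moved no count by over 1.5 times. Leaving out 1 library, with or without the correction, gave 0 to 6 higher and 0 to 11 lower of the 46, and 0 to 9 and 0 to 27 of the further genes.

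Fzd3 stood at 0.93 with the correction and 0.92 with the block added, and between -2.67 and 1.18 over the fits without 1 library. Csnk1a1 stood at 0.11 and 0.12, and between -1.80 and 0.33, Apcdd1 at 0.093 and 0.082, and between -1.24 and 0.30, and Wls between -0.66 and 1.75. Fzd5, Dvl2, Axin1, Apc, Nkd1, Sfrp1, Dkk3, Porcn, Wls and Wif1, not past the threshold as reported, each passed under at least 1 setting. So did Lgr5, which the count filter kept out of the reported fit. The causes were not tested. With 2 libraries per genotype and a GC gradient that runs with genotype, no call held without Npas3-/- replicate 2, for these genes or any other. The depth limits only genes such as Lgr5, Dkk1, Sfrp5, Lef1 and Rnf43, which had few counts.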

Other observations

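Among the further pathway genes past the threshold, 2 secreted regulators were at 0 counts in both Npas3-/- libraries, named after their values were seen. The share of all genes at 0 in both Npas3-/- libraries was not taken. Fewer genes had a count in Npas3-/- at large, 20652 and 21337, against 22902 and 23761 in WT. Rspo2, an R-spondin that binds Lgr4, had 190 and 24 counts in WT. Its WT mean was 31.9 times a floor of 3 counts per library in Npas3-/-, and WT replicate 2 alone 6.82 times. Dkk2, a Dickkopf that binds Lrp6, had 100 and 79 counts in WT, with a mean there of 26.2 times the same floor. Rspo3 had 0.567 and 0.675 CPM in Npas3-/-, against 4.33 and 4.30 CPM in WT, and Sfrp2, a decoy like Sfrp1, 0.724 and 0.714 CPM, against 2.93 and 4.68 CPM. The coactivator genes Crebbp and Ep300, whose products acetylate chromatin at TCF/LEF targets, had 25.1 and 14.4 CPM, and 34.4 and 17.7 CPM, in Npas3-/-, against 69.6 and 91.2 CPM, and 71.1 and 96.4 CPM, in WT. Sfrp2, Crebbp and Ep300 were lower in both fits (edgeR's quasi-likelihood test). Rspo3 was lower without the GC and length correction and did not pass with it. Dkk2 was called in both fits and Rspo2 only without the correction. Both genes, at 0 in Npas3-/-, met the count filter only through WT and could come out only as lower. Their calls are therefore no support. All of these were picked from the 29 lower genes of the further list, which also held 8 higher ones. Over all genes 21.5% were called lower without the correction and 3.84% with it.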
